A study of Solenopsis invicta with 32 samples.

Results

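Genes with a strongly higher read share in the ovaries of overwintered than of spring-reared gynes of the fire ant Solenopsis invicta were followed through ovary and brain. A gene was a member when its median over the 8 overwintered ovaries was at least 2 CPM (counts scaled to a fixed total of gene counts per library) and, after 0.1 CPM was added to both medians, at least 3 times the median over the 8 spring-reared ovaries. The rule gave 98 members of 16314 gene models. Because the members were chosen on the ovary contrast, their ovary values are given as a description, without a test. Brain libraries took no part in the choice, and the brain contrast was tested, although both organs come from the same gynes.

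Gynes are the young queens that leave the nest to mate and found colonies. The study asked which genes go with the plasticity of queen weight between gynes that had overwintered and gynes reared in spring. The 4 groups of 8 libraries were overwintered ovary, spring-reared ovary, overwintered brain and spring-reared brain, all from monogyne colonies, whose nests hold a single egg-laying queen, and all of the SB/SB genotype at the social supergene. Both organs came from the same 16 gynes, with 1 gyne per colony, so replicates within a group are separate animals and colonies. The groups therefore model a single genotype and colony form. Age at collection is not given in the sources used here. Colony codes of the overwintered and the spring-reared gynes carry different prefixes, so that any difference between these colony sets cannot be told apart from the treatment. Libraries were made by Smart-seq2, a method for small amounts of RNA, from 8.0 ng of RNA per ovary and 1.6 ng per brain, and levels are compared between organs below only with that difference in view.

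In an insect ovary, germ cells, nurse cells and the surrounding follicle cells change their transcripts as egg chambers grow, and late follicle cells make large amounts of a few eggshell transcripts. Yolk proteins are made mostly in the fat body and taken up by the growing oocyte. These are general facts about insect ovaries and not results of these libraries. None of the 16314 gene identifiers could be paired with a gene name (0 matched the reference gene table), so that roles of members, tissue markers and gene lists could not be used, and the labelled organs could not be checked against marker genes. Members are described by rank, and 4 of them by identifier. CPM does not take transcript length into account, so an order of CPM values between genes is an order of read shares, not of transcript numbers. In bulk tissue, fewer cells of a type and less RNA per cell cannot be told apart.

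Libraries held 9612985 to 23656547 gene counts. Overwintered ovary 1 had 8.97% of its reads assigned to no gene feature, against 6.14% to 7.07% in the other overwintered ovaries. As the members' values below show, overwintered ovary 1 stood apart at the low end, overwintered ovary 5 at the high end, and spring-reared ovary 6 stood apart from its group at the high end. Some of the results that rest on them are also given without 1 or more of them.

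The 98 members together took between 0.412% and 10.2% of gene counts in the overwintered ovaries, with a median of 3.96%. In spring-reared ovaries the same share ran from 0.195% to 2.61%, with a median of 0.242%. The lowest overwintered value belonged to ovary 1, the highest to ovary 5, and the highest spring-reared value to ovary 6, so that the groups overlapped. As group means the shares were 4.09% ± 2.87 (SD, n = 8) and 0.539% ± 0.839 (SD, n = 8). Without overwintered ovary 1 and spring-reared ovary 6, the overwintered ovaries lay between 2.34% and 10.2% and the spring-reared ovaries between 0.195% and 0.321%, with no overlap. These ovaries held the lowest overwintered and the highest spring-reared share and were left out after seeing the data. The lack of overlap therefore rests on that choice.

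**Figure D1:**
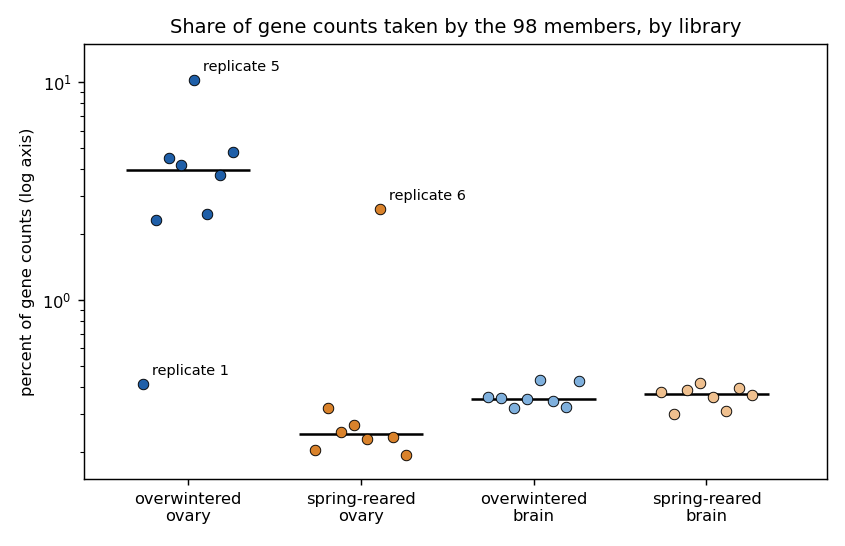
Percent of gene counts taken by the 98 members in each of the 32 libraries, on a log axis, by group; points are libraries and horizontal lines are group medians. Spring-reared ovary 6 (2.61%) lies inside the range of the overwintered ovaries, overwintered ovary 1 (0.412%) lies near the other spring-reared ovaries, and all 16 brains lie between 0.300% and 0.427%.

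In brain the members' share was about as large in overwintered as in spring-reared gynes. The overwintered brains ranged from 0.318% to 0.427% with a median of 0.353%, and the spring-reared brains from 0.300% to 0.414% with a median of 0.371%. The group means were 0.363% ± 0.0415 and 0.363% ± 0.0401 (SD, n = 8 each), and the ranges overlapped along nearly their whole length. The sum rests largely on 3 members with the highest brain levels, which took 51.5% to 78.7% of the members' counts in overwintered and 60.2% to 83.9% in spring-reared brains. The other 95 members took 0.130% ± 0.0449 and 0.0996% ± 0.0354 of gene counts (SD, n = 8 each), with overlapping ranges.

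All 98 members had counts in every overwintered ovary. In spring-reared ovaries 88 to 97 of them had counts, and from 36 to 47 reached 2 CPM, except in ovary 6, where 74 did. Between 80 and 95 members reached 2 CPM in the overwintered ovaries. Counts were found for 59 to 76 members in overwintered brains and for 49 to 60 in spring-reared brains. Over all gene models, 10675 to 11333 had a count in overwintered brains and 9854 to 10569 in spring-reared brains. The part of this overall difference in the members' counts was not tested.

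The ratio of the medians, with 0.1 CPM added to each, ran from 3.00 to 2947, with a median of 7.11 over the members. It was at least 10 in 40 members and at least 100 in 15. Overwintered ovary medians ran from 2.03 to 7023 CPM; they were at least 100 CPM in 21 members, from 10 to under 100 in 37 and under 10 in 40. For 38 members the spring-reared ovary median was under 1 CPM. Members just inside the fold limit had ratios of 3.00, 3.02 and 3.02, and the genes just outside it had 2.94, 2.90 and 2.89. At the level limit, the members just inside had overwintered medians of 2.03, 2.04 and 2.05 CPM, and the genes just outside had 1.97, 1.95 and 1.93 CPM.

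The ovary libraries of the treatments did not overlap for 13 of the 98 members, with every overwintered library above every spring-reared one. Among all 13170 genes with a count in any ovary this held for 0.425%. Without overwintered ovary 1 and spring-reared ovary 6 it held for 52 members, against 1.12% of all genes. Since the members were chosen on this contrast, nothing is read from these shares beyond the number of members with overlapping libraries.

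The member with the largest ratio, SINVBB1_14989, ranged in overwintered ovaries from 171 CPM in ovary 1 to 14399 CPM in ovary 5, with a median of 3168 CPM. In spring-reared ovaries it ranged from 0.44 to 7.03 CPM apart from ovary 6, which had 971 CPM, and the median was 0.98 CPM. The groups overlapped through ovary 6, which lay above the lowest overwintered values of 171 CPM, 242 CPM and 962 CPM. The ratio of medians was 2947, or 11.53 on the log2 scale; taken from means in place of medians it was 31.7. Nearly no signal was found in brain: the gene was at 0 in all brains except overwintered brain 6 with 1.01 CPM and spring-reared brain 2 with 2.66 CPM.

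SINVBB1_11164, with the second largest ratio, separated the treatments in every ovary. Its values in overwintered ovaries ran from 12.2 to 773 CPM with a median of 156 CPM. In spring-reared ovaries 4 libraries were at 0 and the highest, ovary 6, had 1.56 CPM. The 8 spring-reared ovaries together gave 38 counts of this gene and the 8 overwintered ovaries 31785. The ratio of medians was 1096 and fell to 150.5 when 1 CPM was added in place of 0.1 CPM. In overwintered brains the gene reached at most 0.13 CPM and in spring-reared brains at most 0.40 CPM.

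Among the members with the highest overwintered ovary medians, the member ranked first ranged from 528 to 17446 CPM in overwintered ovaries, with a median of 7023 CPM. In spring-reared ovaries it ranged from 59.8 to 2514 CPM with a median of 254 CPM, and the ratio was 27.7. Its highest spring-reared library was ovary 6, the only one above the lowest overwintered library. In overwintered brains it did not exceed 2.55 CPM, and it had no count in any spring-reared brain.

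The member ranked second was abundant in both treatments. Its overwintered ovaries ran from 1100 to 22438 CPM with a median of 6230 CPM, and its spring-reared ovaries from 815 to 13203 CPM with a median of 1171 CPM. Spring-reared ovary 6 exceeded every overwintered ovary except ovary 5. The ratio was 5.32, and no brain library held a single count of this gene.

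The members of rank 3 and rank 4 followed a pattern shared with SINVBB1_14989, which had rank 5. Rank 3 ran from 203 to 22555 CPM in overwintered ovaries with a median of 5751 CPM. In spring-reared ovaries it had 5.41 to 19.7 CPM and 1254 CPM in ovary 6, for a ratio of 655. Rank 4 ran from 181 to 13840 CPM in overwintered ovaries with a median of 3452 CPM. Its spring-reared ovaries had 3.59 to 12.9 CPM and 1003 CPM in ovary 6, for a ratio of 410, and all 16 brains were at 0. For all 3 genes, ovary 5 was highest and ovaries 1 and 3 were lowest among the overwintered libraries. Ovary 3 was at the same time the highest library for the member ranked first.

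**Figure D2:**
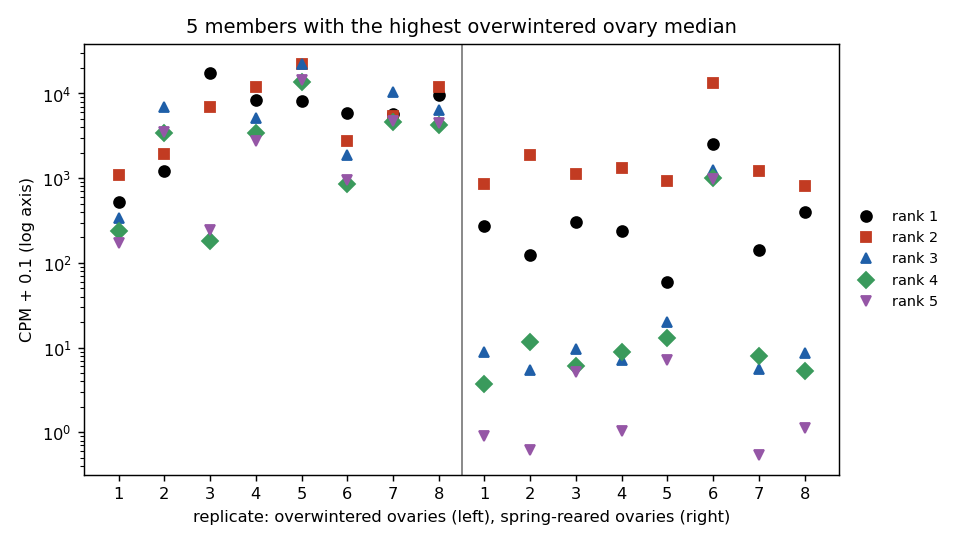
CPM plus 0.1 on a log axis for the 5 members with the highest overwintered ovary medians, in each overwintered ovary (left) and each spring-reared ovary (right); each symbol is a gene. Ranks 3, 4 and 5 lie close together in every overwintered ovary and are low in ovaries 1 and 3, rank 1 is highest in ovary 3, and spring-reared ovary 6 is the highest spring-reared library for all 5.

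Over the 8 overwintered ovaries, Pearson's r of log2 values was 0.992 between ranks 3 and 4, 0.985 between ranks 3 and 5 and 0.992 between ranks 4 and 5. Without ovaries 1 and 5 the same pairs had 0.988, 0.987 and 0.996 over 6 libraries. Rank 1 had 0.163, 0.211 and 0.291 with ranks 3, 4 and 5, and -0.572, -0.506 and -0.518 without ovaries 1 and 5. With rank 2 it had 0.819, and 0.762 without those ovaries. Ranks 3 to 5 thus varied together over these ovaries, and rank 1 did not vary with them. These correlations describe a few libraries that share depth and composition, and carry no test.

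Genes with r of at least 0.9 to the member ranked first were 8 of the 97 other members (8.25%) and 14 of 8359 other genes with an overwintered ovary median of at least 2 CPM (0.167%). For SINVBB1_14989 they were 2 of 97 members (2.06%) and 0 of 8359 other genes. Without ovaries 1 and 5 the shares for the member ranked first were 12.4% and 0.371%, and for SINVBB1_14989 they were 3.09% and 0.562%. Taken over all pairs, the median r over overwintered ovaries was 0.195 between members and 0.325 between the other genes; without ovaries 1 and 5 the order turned, with 0.0778 and 0.0662. Over the 8 spring-reared ovaries the medians were 0.400 and 0.0189, and 0.0148 and 0.0195 without ovary 6.

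The 5 leading members held 0.237% to 8.14% of gene counts in overwintered ovaries. In spring-reared ovaries they held 0.102% to 0.204%, and 1.89% in ovary 6. The other 93 members held 0.175% to 2.09% in overwintered ovaries, and 0.0721% to 0.128% in spring-reared ovaries with 0.719% in ovary 6. Both sets of members were thus high in spring-reared ovary 6 and lowest among overwintered ovaries in ovary 1.

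Spring-reared ovary 6 was the highest spring-reared library for 64 of the 98 members. It was at or above the lowest overwintered ovary for 68 and reached the overwintered median for 25. For some of these 68 it lay above every overwintered ovary, as in a member with 229 CPM there and at most 206 CPM in overwintered ovaries. SINVBB1_11164 was not among those 68, with 1.56 CPM there against at least 12.2 CPM in overwintered ovaries. Overwintered ovary 1 was the lowest overwintered library for 43 members, ovary 2 for 22 and ovary 5 for 20. Overwintered ovary 3 was the highest for 33 members, ovary 4 for 19 and ovary 5 for 13. Ovary 5, which had the largest summed share, was therefore more often the lowest than the highest library, and its sum came mostly from the leading members. Such counts were not made over all ovary genes, so they are not read as traits of the members. Why these libraries stood apart was not tested.

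**Figure D3:**
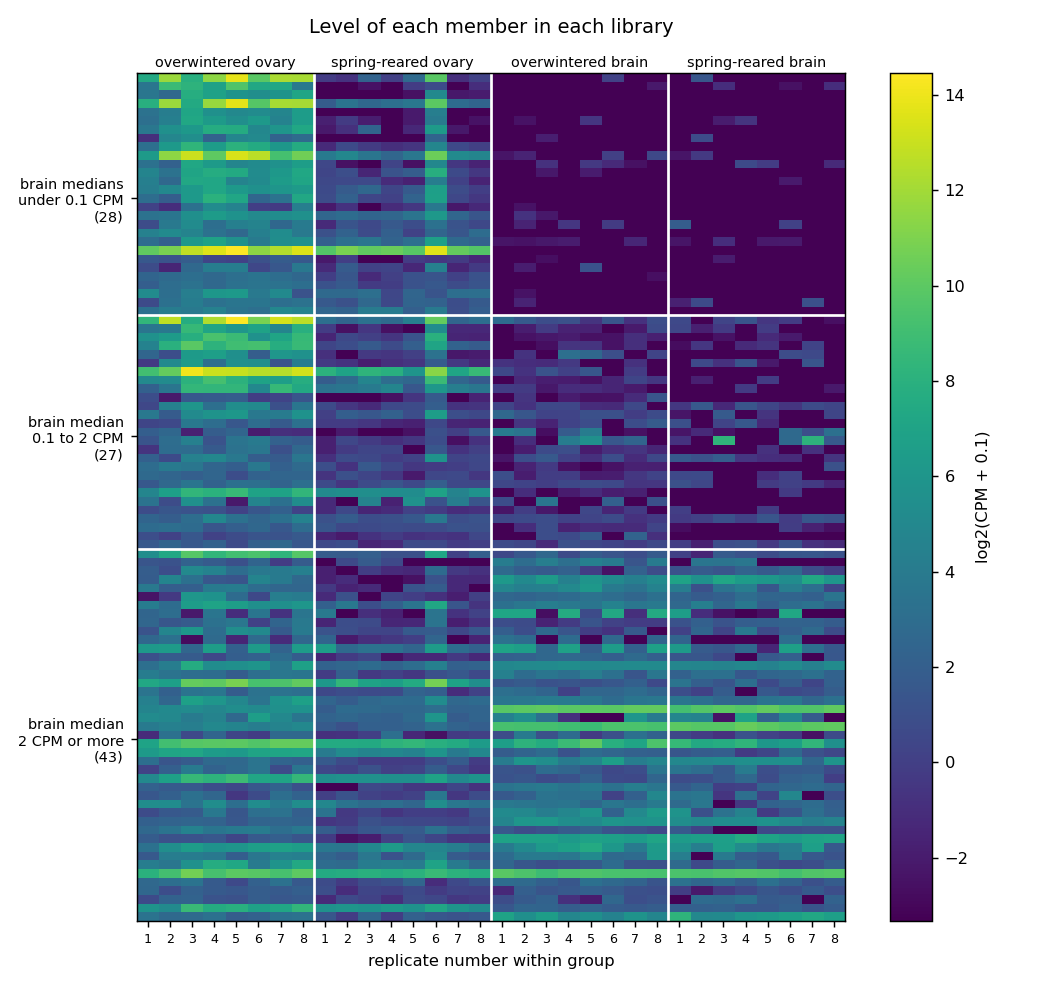
Level of each member (rows) in each library (columns) as log2(CPM + 0.1), with members grouped by brain level and sorted within each group by ovary ratio. Spring-reared ovary 6 stands out as a bright column among the spring-reared ovaries, and the upper 28 rows are dark in most brain columns.

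By brain level the members fell into 3 classes. Of the 98, 28 had medians under 0.1 CPM in both brain groups, 27 had a higher brain median of 0.1 to under 2 CPM, and 43 had a brain median of at least 2 CPM in at least 1 group. The 28 members with brain medians under 0.1 CPM had ovary ratios from 3.05 to 2947, with a median of 27.5. Over its members, the median of the ovary medians was 43.2 CPM for the overwintered and 1.51 CPM for the spring-reared group. Of these 28, 11 had no count in any of the 16 brains and 17 had some, up to 3.73 CPM in a single brain, with 462 brain counts in all. The median ratio was 10.1 in the class with a brain median of 0.1 to under 2 CPM, and 4.89 in the class with at least 2 CPM.

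Ovary 6 of the spring-reared group was at or above the lowest overwintered ovary for 23 of the 28 members with the lowest brain medians. The same held for 20 of the 27 in the middle class and for 25 of the 43 with the highest. Ovaries of the treatments did not overlap for 4, 2 and 7 members of the classes in the same order. Without overwintered ovary 1 and spring-reared ovary 6 these counts were 21, 16 and 15. Among all 13170 genes with a count in any ovary, 0.425% had every overwintered ovary above every spring-reared one. Without those libraries it was 1.12%. Shares over all genes at each brain level were not computed, so the classes are not compared. Ratio and overlap within a class depend on the rule and are descriptions.

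For 17 members the overwintered brain median was above the overwintered ovary median, and for 32 the spring-reared brain median was above the spring-reared ovary median. The highest brain level was that of SINVBB1_04723, described with the brain test. The member of rank 2 by brain level had a brain median of 1009 CPM when overwintered and of 818 CPM when spring-reared. Its ovary values were far lower, from 25.5 to 53.0 CPM for the overwintered group and from 3.52 to 8.24 CPM for the spring-reared group, without overlap. The member of rank 3 by brain level had brain medians of 681 and 797 CPM. In ovaries it had 257 to 1600 CPM with a median of 770 CPM when overwintered, and 190 to 418 CPM with a median of 232 CPM when spring-reared, so that overwintered ovary 1 overlapped the spring-reared range.

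The brain contrast was tested because the rule did not use the brain libraries. It is not fully independent of the rule, since both organs come from the same gynes and some members, described further on, were high in the same gynes in both. Of the 98 members, 50 passed the filter on low counts in brain and 48 did not. In edgeR's quasi-likelihood test over 9570 brain genes, 2 of the 50 rose (4.00%) and 2 fell (4.00%) in overwintered brains at an adjusted p under 0.05. Of all genes tested in brain, 1.61% rose and 3.79% fell. The median brain log2 fold change of the 50 members was 0.15, and that of all tested genes was 0.02. Positive fold changes were found in 29 of the 50 (58.0%), against 52.7% of all tested genes. An unadjusted p under 0.05 was found for 9 of the 50 (18.0%), against 19.9% of all tested genes. With DESeq2, 4 members rose (5.33%) and 3 fell (4.00%) of 75 tested, where 3.43% of all tested genes rose and 4.94% fell. Leaving out overwintered brain 7 left 0 members that rose, against 1.14% of all genes.

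**Figure D4:**
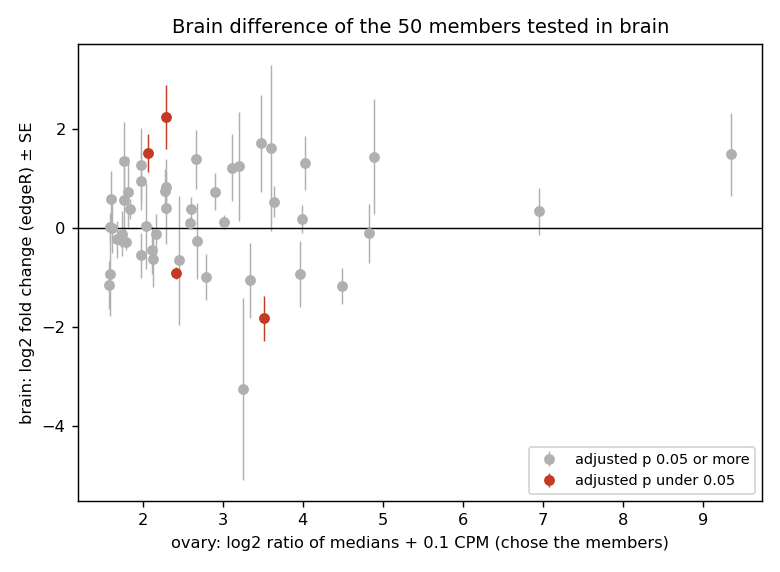
Brain log2 fold change from edgeR (overwintered over spring-reared, with its SE as bars) against the log2 ratio of ovary medians that chose the members, for the 50 members tested in brain. Points lie on both sides of 0, and the 4 red points are the 2 members that rose and the 2 that fell at an adjusted p under 0.05.

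SINVBB1_04723 went opposite ways in the organs. Its ovary direction was set by the rule, so any member that fell in brain would show this. Its level in overwintered brains ran from 442 to 700 CPM with a median of 603 CPM, and in spring-reared brains from 785 to 1303 CPM with a median of 1021 CPM. The brain groups did not overlap. In brain its log2 fold change was -0.91 with a standard error of 0.12, and the adjusted p from edgeR's quasi-likelihood test was 3.33e-04. All 8 overwintered brains thus lay under the median of the spring-reared ones. In ovary the order was the other way round and again without overlap: overwintered ovaries ran from 15.4 to 32.1 CPM with a median of 23.3 CPM, and spring-reared ovaries from 2.00 to 9.80 CPM with a median of 4.30 CPM. The ovary log2 ratio was 2.41, the difference between organs was not tested, and brain levels were above ovary levels in both treatments. Overwintered ovary 1 and spring-reared ovary 6 each kept to the side of their own group for this gene, with 15.4 and 9.80 CPM.

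SINVBB1_08259 was the other member that fell in overwintered brains, at a low level. Overwintered brains ran from 0.23 to 2.40 CPM with a median of 0.90 CPM, and spring-reared brains from 2.13 to 5.00 CPM with a median of 4.00 CPM. The groups overlapped between 2.13 and 2.40 CPM. Its brain log2 fold change was -1.82 with a standard error of 0.45, and the adjusted p was 0.0243 in edgeR's quasi-likelihood test. Without spring-reared brains 4 and 7, which had the fewest detected genes of their group (9933 and 9854), the log2 fold change was -1.72 and the adjusted p 0.0664. With the replicate number as a block they were -2.02 and 0.0644. Its ovary medians were 5.41 CPM (overwintered) and 0.38 CPM (spring-reared), and spring-reared ovary 6 had 11.5 CPM.

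The member that rose in brain with the lower adjusted p had 10.03 to 19.6 CPM in overwintered brains, with a median of 12.8 CPM, and 0.89 to 7.28 CPM in spring-reared brains, with a median of 5.23 CPM. The brain groups did not overlap. In edgeR's quasi-likelihood test the log2 fold change was 1.51 with a standard error of 0.38 and an adjusted p of 0.0244, which became 0.0511 without overwintered brain 7. Its ovary medians were 2.93 and 0.62 CPM.

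The other member that rose had 0.75 to 15.3 CPM in overwintered brains, with a median of 3.41 CPM, and 0.07 to 2.18 CPM in spring-reared brains, with a median of 0.91 CPM. Those groups overlapped, and 7 of 8 overwintered brains were above the spring-reared median. Its log2 fold change was 2.24 with a standard error of 0.64 and an adjusted p of 0.0485 in edgeR's quasi-likelihood test. In 17 of 23 alternatives it no longer passed, with log2 fold changes over the alternatives from 1.83 to 2.52 and adjusted p values from 0.00616 to 0.220. When single brains were left out, it still passed only without overwintered brain 1 or 5 or spring-reared brain 4. Overwintered brain 2 held the highest value, and without it the adjusted p was 0.131. Its ovary medians were 3.49 and 0.63 CPM.

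A few members had high values in some gynes and clearly lower ones in others, with the same gynes high in both organs. After values had been seen, such genes were picked by a gap of at least 1.5 on the log2 scale (2.83-fold) that put the same gynes above it in ovary and brain. This held for 4 of the 98 members (4.08%) and for 15 of 8539 other genes with an ovary median of at least 2 CPM in either group (0.176%). The shares describe genes picked from these values and have no test. Both the rule and this pick favour genes with wide differences between ovaries, so nothing is read from the difference in shares.

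Of these 4, the member ranked 35 by ratio had 5.50, 7.92, 0.13, 12.0, 0.39, 11.7, 0.51 and 12.2 CPM in overwintered ovaries 1 to 8. In the brains of the same gynes it had 138, 141, 0.06, 197, 1.58, 167, 0.42 and 184 CPM. Spring-reared gynes 1 and 6 had 14.5 and 11.6 CPM in ovary and 95.6 and 154 CPM in brain, while the other spring-reared gynes were at most at 1.03 CPM in ovary and 0.40 CPM in brain. The high values were thus found in 5 overwintered and 2 spring-reared gynes, so that the medians of the groups fell on different sides of the gap.

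The members ranked 41 and 43 by ratio were high in the same 7 gynes. The member ranked 43 had 80.0 to 96.4 CPM in those ovaries and 4.30 to 10.1 CPM in the other 9, and 83.6 to 125 CPM in those brains and 0.27 to 8.89 CPM in the others. The member ranked 41 had 5.18 to 9.57 CPM in those ovaries and at most 0.87 CPM in the others, and it was at 0 in all 9 other brains. The last of them, ranked 21 by ratio, was high in all 8 overwintered gynes and in spring-reared gynes 2, 3 and 4. In ovary it had 0.80 to 5.10 CPM in overwintered gynes and 1.41 to 3.31 CPM in those 3 spring-reared gynes. It had 2.54 to 21.3 CPM in overwintered brains, 11.5 to 13.1 CPM in those 3 spring-reared brains and 0 in both organs of the other 5. In brain, 3 of the 4 passed the filter on low counts, and their adjusted p values in edgeR's quasi-likelihood test ran from 0.535 to 0.644.

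**Figure D5:**
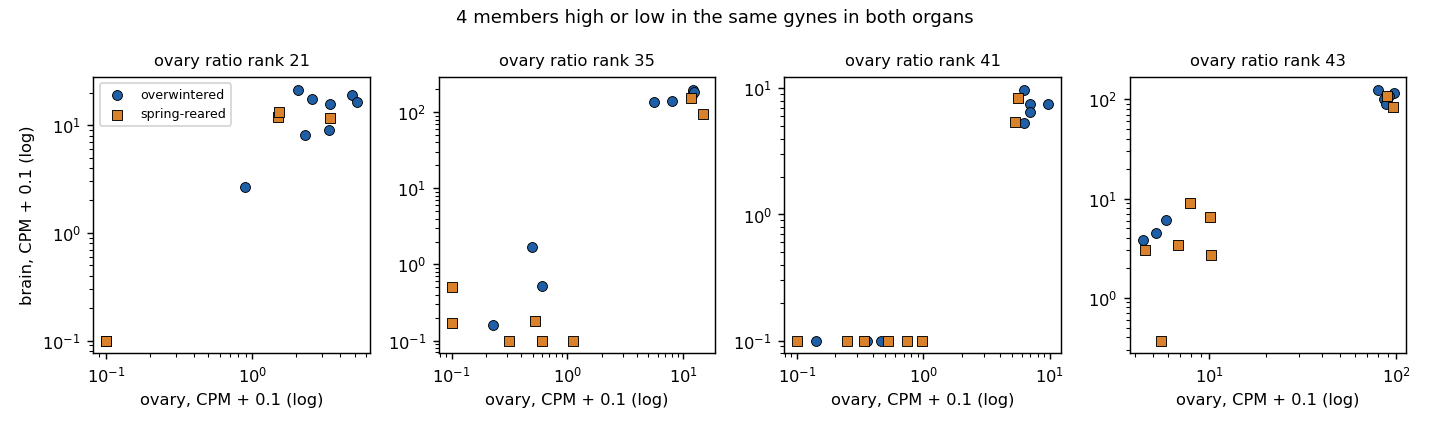
Brain against ovary level (CPM + 0.1, log axes) of each of the 16 gynes for the 4 members with a shared gap in both organs, numbered by their rank of ovary ratio; blue circles are overwintered and orange squares spring-reared gynes, and points at 0.1 on both axes lie on top of each other. In each panel the gynes fall into a high and a low set, with gynes of both treatments in the high set.

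Members were also found next to each other in the numbering of the gene identifiers. Of the 97 members with a plain number, 14 (14.4%) had a number next to that of another member, against 167 of 14390 other genes (1.16%) next to a member. They formed 4 runs of 2 and 2 runs of 3. Whether the numbering follows genome position is not given in the sources used here. Reads that fit near-identical copies equally well are multimapping reads, which entered no gene count, so such copies cannot be told apart by them.

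SINVBB1_11164 and the member of rank 3 by level formed such a run, with ratios of 1096 and 655. Another run held a pair without a single count in brain, with ratios of 412 and 350. Its first gene had 6.40 to 215 CPM in overwintered ovaries, and its second 10.5 to 138 CPM. In spring-reared ovaries both had at most 0.16 CPM except in ovary 6, with 33.9 and 19.5 CPM. A run of 3 had ratios of 235, 10.5 and 224, and the other run of 3 had 3.41, 4.89 and 80.3. The remaining pairs had ratios of 82.1 and 28.5, and of 27.7 and 214.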

How the data were processed

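RNA of 16 brains and 16 ovaries was measured as gene counts deposited by the authors, which are whole-number read counts per gene model. The submitters' processing notes list STAR 2.7.3a, Trim Galore 0.6.5 and edgeR; no genome build or annotation is named in the sources used here. Since Smart-seq2 keeps no strand, the unstranded column was taken, and overlapping and antisense genes cannot be separated in it. Reads on the 4 lines without a gene (unmapped, multimapping, no feature, ambiguous) made up 16.5% to 21.2% in ovaries and 32.0% to 47.2% in brains; they entered neither library sizes nor tests. CPM was the count divided by the sum of gene counts; the authors' deposited CPM tables were not used. Members and lists were chosen with earlier results of these data known. The brain contrast was fitted to the counts by edgeR 4.0.16 in R 4.3.3 (TMM, filterByExpr, robust quasi-likelihood F-test, Benjamini-Hochberg over all genes tested, threshold 0.05) without a block; the standard error is the absolute log2 fold change over the square root of F. Alternatives used DESeq2 1.42.0, limma 3.58.1 voom, other size factors and filters, a replicate block, other limits of the rule and left-out libraries. The brain fit was tested on simulated data, where it called 55 of 93 genes changed 2-fold, 77 of 102 changed 4-fold and 4 of 9193 unchanged ones. Calls in either direction were counted, and those of the 200 changed genes that failed the filter were left out. Counts were drawn gene by gene from the means and spreads estimated in these brains, with no library set apart. The simulation therefore does not show how the fit treats the low and uneven brain counts of many members.

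Without gene names, the rule for what is described was: by identifier, the 2 members with the largest ovary ratio and at most 2 that fell in brain; by rank, the 5 highest overwintered ovary medians, the members that rose in brain, the 3 highest brain levels and the 3 genes on each side of each limit. Members with a gap shared by both organs and runs of identifiers were chosen after values were seen. Depth was 9612985 to 23656547 gene counts per library. No 2 libraries of a group agreed within sampling noise (lowest chi-square per degree of freedom 18.7).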

Additional observations from a re-analysis of the deposited data

Results flagged for a closer look

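In 13 of 32 checks, each of 1 measure over the 8 libraries of a group, a single library lay far from the others of its group. Independent checks would give about 1.6 (1 in 20). These checks reused the same libraries, and their genes were picked for level, ratio or brain call, so that the 13 cannot be set against that number. The members' summed share was far from the rest in overwintered ovary 5 (10.2%) and in spring-reared ovary 6 (2.61%). Spring-reared ovary 6 was far above its group for the member ranked first by level (2514 CPM), the second (13203 CPM), the third (1254 CPM), the fourth (1003 CPM), SINVBB1_14989 (971 CPM), SINVBB1_04723 (9.80 CPM) and SINVBB1_08259 (11.5 CPM). Overwintered ovary 5 was far above its group for the third (22555 CPM), the fourth (13840 CPM) and SINVBB1_14989 (14399 CPM). For the member that rose in brain with the higher adjusted p, spring-reared ovary 4 was far above its group (9.11 CPM).

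SINVBB1_04723 differed in opposite directions in the organs, with a log2 ratio of 2.41 in ovary and a log2 fold change of -0.91 in brain. Every overwintered ovary was above every spring-reared ovary, and every overwintered brain was below every spring-reared brain. The direction in ovary was set by the rule for every member, so any member that fell in brain differs in this way. The difference between organs was not tested.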

How the results depend on the processing

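The number of members was 98 and ran from 91 to 112 when single ovaries were left out; it was 190 with a fold limit of 2, 61 with a fold limit of 5, 77 with 1 CPM added, 102 with TMM or DESeq2 sizes, 95 with means (72 of them among the 98) and 126 without overwintered ovaries 1 and 5 and spring-reared ovary 6 (94 among the 98). Without overwintered ovary 1 and spring-reared ovary 6, a choice made after seeing the data, it was 112, of which 93 were among the 98. The count of members that rose in overwintered brains was 2, where 1.61% of all genes tested rose. Shares of all genes follow each further count in parentheses. The count was 4 with DESeq2 (3.43%), 1 with limma voom (2.95%), 5 without a filter (1.38%) and 1 without spring-reared brains 4 and 7 (1.08%). When single brains were left out the count was 0 to 2 (0.841% to 2.09%), with 0 without overwintered brain 7 (1.14%). With a replicate block, 1 member rose and 1 fell, and over all brain genes 85 rose and 223 fell in place of 154 and 363. Without spring-reared brains 4 and 7, 1 member fell, where 2.00% of all genes tested fell. The same replicate number names different colonies in the 2 treatments, so the numbers do not pair gynes. Same-numbered brains of the treatments did not deviate together (r from -0.184 to 0.0331, and 0 of 8 correlated best with their own number). These few correlations do not settle whether same-numbered libraries were handled together. SINVBB1_04723 kept its direction and its call in all 23 alternatives, with adjusted p from 3.94e-10 to 0.00423. The log2 ratio of ovary medians was 4.98 for SINVBB1_14989 when means were used and 7.23 for SINVBB1_11164 with 1 CPM added. In brain, 48 members did not pass the filter on low counts, of which 11 had no count in any brain.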
